A study of Populus tremula x Populus alba with 72 samples.

Results

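Growing leaves of hybrid poplar were set against expanded leaves of the same clone after 2 days in charcoal-filtered air, using the 8 libraries that the labels mark as control, day 2 (4 of growing and 4 of expanded leaves) out of 72 in the series. The trees, *Populus tremula x alba* of the clone INRAE 717-1B4, had been micropropagated, were 2.5 months old and stood in chambers with a 14 h photoperiod. The whole series crosses the leaf positions with filtered air, filtered air with 80 ppb ozone or filtered air with 100 ppb ozone (ozone given for 13 h in the daytime) and with sampling on day 2, 8 or 13, in 18 groups of 4 libraries. Polyadenylated RNA was read as stranded pairs of 150 bases. Both groups compared here came from trees without added ozone, and all groups share 1 clone and the same filtered air, so the values describe 1 genotype. The column names carry the code F10 for growing and F3 for expanded leaves on each sampling day. Neither the tree nor the chamber behind a replicate is given, nor whether the growing leaves of days 8 and 13 are those followed from day 2. The p-values therefore measure only the spread between libraries, pooled over the 72 of all 18 groups.

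A growing poplar leaf still divides and enlarges its cells, builds its photosynthetic machinery and imports sugar from older leaves. An expanded leaf has stopped enlarging, carries out most of the photosynthesis of the shoot and exports sugar. Along a poplar shoot these states pass into each other as a leaf ages.

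Each value is a normalised read count, which is the number of reads of a gene divided by 1 size factor per library. The 4 growing leaf libraries held 33.8 M to 39.0 M reads (M, mega-reads) assigned to genes and the 4 expanded leaf libraries 35.3 M to 47.7 M, within 23.2 M to 54.3 M over the series. Of 34699 genes listed, 27780 had at least 10 normalised reads in at least 4 libraries and were tested. The table gives gene identifiers without names or descriptions, so genes are given by identifier, their functions are not described, and the leaf labels were not checked against marker genes. Whether a gene has near-identical copies that share its reads was not assessed. Where a gene differs between whole leaves, fewer cells of a type and less of its RNA per cell cannot be told apart.

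Leaf position separated the 8 libraries along the first principal component, with 80.4% of the variance of the log2 values. Growing leaves lay at 114.6, 145.1, 117.9 and 93.9 on this component and expanded leaves at −104.4, −129.9, −111.9 and −125.3. Growing replicate 2 lay farthest from the expanded leaves. Its mean correlation with the other growing libraries across genes was 0.977, against 0.981 to 0.985 for the rest of its group, and results are given without it below. Across genes, pairs of growing libraries correlated at 0.972 to 0.988 and pairs of expanded libraries at 0.978 to 0.985, while pairs of 1 growing and 1 expanded library gave 0.844 to 0.914. The median SD of a gene between replicates was 0.196 in growing and 0.181 in expanded leaves on the log2 scale.

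On day 2, 17488 of the 27780 genes tested (63%) differed between growing and expanded leaves (limma, Benjamini-Hochberg adjusted p under 0.05). In growing leaves 9023 genes (32.5%) were higher and 8465 (30.5%) were lower. Differences of at least 2-fold were found for 4323 higher (15.6%) and 3894 lower genes (14%), and differences of at least 8-fold for 827 higher (2.98%) and 694 lower genes (2.5%). At 64-fold and above, 73 genes were higher and 41 were lower in growing leaves. All 4 growing libraries lay above all 4 expanded libraries for 8639 genes (31.1%) and below them for 8192 (29.5%), and 90.1% of the called genes had groups that did not overlap. Without growing replicate 2 the count of differing genes was 16208, of which 15894 were among the 17488. The genes at least 8-fold higher then numbered 718 and those at least 8-fold lower 650. With a pseudocount of 8 these counts were 460 and 368.

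Genes that missed the test were of different kinds. Of the 10292 genes not called, 4911 (47.7%) had a 95% interval that lay within a 1.5-fold difference in either direction, and for the others a larger difference was compatible with the data. Among the called genes, 1997 (11.4%) had an interval within the same limits, so their differences were small as well as passing the test. The share called depended on the level of the gene. Below a mean of 10 normalised reads 33.6% of genes were called, with a median standard error of 0.63 on the log2 scale. Between 1000 and 10000 reads 69.4% were called, with a median standard error of 0.13. Above 10000 reads the share was 63.9%, with a median standard error of 0.21.

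**Figure D1:**
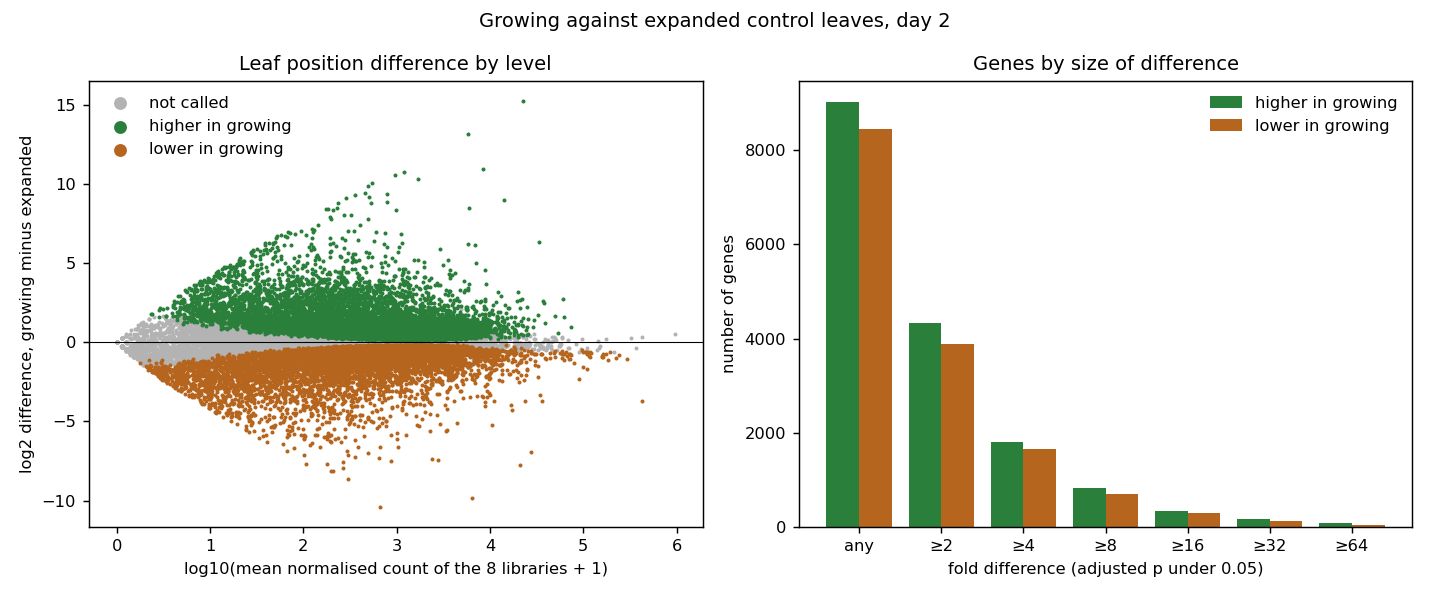
Left, log2 difference (growing minus expanded leaves, day 2 controls) of each tested gene against its mean level over the 8 libraries, with genes of adjusted p under 0.05 in colour. Right, the number of genes at or above each fold difference; 827 genes were at least 8-fold higher and 694 at least 8-fold lower in growing leaves.

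The directions were less even at both ends of the range of levels. Below a mean of 10 normalised reads 12.8% of genes were higher and 20.8% lower in growing leaves. The filter took in all 72 libraries, so a gene at this level can have been tested because of its reads in other groups. These 2 shares hold for the genes that the filter kept, and its effect on them was not tested. Above a mean of 10000 normalised reads, 24.8% of 476 genes were higher and 39.1% lower in growing leaves, against 35.5% and 33.8% of genes between 1000 and 10000 reads. The 100 most abundant genes of each library took 22.7% ± 1.06 of the reads in growing leaves and 28.7% ± 2.14 in expanded leaves (SD, n = 4 each). The shares ran from 21.5% to 23.6% in growing leaves and from 25.8% to 30.9% in expanded leaves, with no overlap. The two-sided exact permutation test gave p = 0.0286, the smallest that 4 against 4 libraries allow, and 0.0857 after Benjamini-Hochberg adjustment over 3 such measures, so the difference did not pass the correction. The other measures were the share of the 10 most abundant genes (8.17% ± 0.262 in growing and 9.66% ± 0.953 in expanded leaves, SD, n = 4 each, exact permutation p = 0.0571) and the number of genes with reads (28437 ± 166 and 28271 ± 261, SD, n = 4 each, exact permutation p = 0.343).

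The largest differences were close to the presence or absence of a transcript. Potri.019G024600 had 52835, 46986, 46889 and 36278 normalised reads in growing leaves and 0, 0, 1.02 and 0 in expanded leaves. The expanded value of 1.02 is a single read, so 168885 reads in the growing libraries stood against 1, a ratio of 176940 (95% counting interval 31757 to 6988784). In Potri.002G252200 the values were 10682, 19126, 10266 and 6670 in growing leaves, against 0, 0, 1.02 and 0 in expanded leaves. Its 43354 growing leaf reads against 1 gave a ratio of 45422 (95% counting interval 8152 to 1794102). Growing replicate 2 was the highest library for this gene, and the log2 difference was 13.15 ± 0.62 (SE) with it and 12.88 without it.

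Potri.017G144061 had no read in any growing library, against 1065, 1447, 1350 and 1469 normalised reads in expanded leaves, at least 1642-fold lower with 3 reads over the group as the floor. Potri.014G149700 had 7.25, 30.4, 6.05 and 19.1 normalised reads in growing leaves and 11436, 13078, 13688 and 12667 in expanded leaves. Both groups of this gene held reads in every library, and its log2 difference was −9.84 ± 0.55 (SE; limma, adjusted p = 1.73e-22). The 4 genes were chosen in these same libraries for large differences between groups that do not overlap. Their p-values are therefore a description (limma, adjusted p between 1.97e-29 and 1.73e-22). Where a group held 3 reads or fewer, the fitted log2 difference depends on the pseudocount and is no bound.

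Potri.019G024600 and Potri.002G252200 also led the comparison of leaf positions on day 2 in ozone, which used other libraries. At 80 ppb, Potri.019G024600 had 34983, 50882, 32327 and 46113 normalised reads in growing leaves and 0, 5.87, 10.2 and 2.10 in expanded leaves. At 100 ppb it had 43085, 31954, 29051 and 43985 in growing leaves and 0, 1.74, 0 and 0 in expanded leaves. Potri.002G252200 was the other gene with the largest positive difference at both ozone levels (13.05 ± 0.62 at 80 ppb and 12.71 ± 0.62 at 100 ppb, log2 ± SE). Among the lower genes, Potri.014G149700 had log2 differences of −9.63 ± 0.55 at 80 ppb and −10.74 ± 0.55 at 100 ppb. At 100 ppb growing replicate 2 had no read of it, and the difference without that library was −9.72. The largest negative difference at 80 ppb was that of Potri.014G126000, with 0, 1.37, 0 and 0 normalised reads in growing leaves and 1000, 1430, 934 and 781 in expanded leaves (1 read against 3898, 3508-fold lower, 95% counting interval 629 to 138592). In filtered air its values were 0, 6.29, 0 and 0 in growing leaves and 241, 487, 278 and 421 in expanded leaves. At 100 ppb expanded replicate 2 had 73.2 normalised reads of this gene, against 954 to 1544 in the other expanded libraries.

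Later samples of these genes differed. In filtered air Potri.019G024600 stood at 60.5 to 87.8 normalised reads in growing leaves on day 8, against 0 to 8.96 in expanded leaves. On day 13 its values were 0, 0.976, 0 and 0 in growing leaves and 1.83, 5.82, 0 and 0 in expanded leaves. Potri.017G144061, without a read in growing leaves on day 2, had 366 to 533 normalised reads there on day 8 and 399 to 1233 on day 13. Expanded leaves had 343 to 585 of it on day 8 and 74.0 to 174 on day 13, so on day 13 every growing library lay above every expanded library (log2 difference 3.00 ± 0.40 SE, limma, adjusted p = 9.19e-08). Potri.014G149700 had 1182 to 2253 normalised reads in growing leaves on day 8, against 19544 to 26815 in expanded leaves. On day 13 it had 18184 to 32018 in growing and 14902 to 27048 in expanded leaves, and those groups overlapped.

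**Figure D2:**
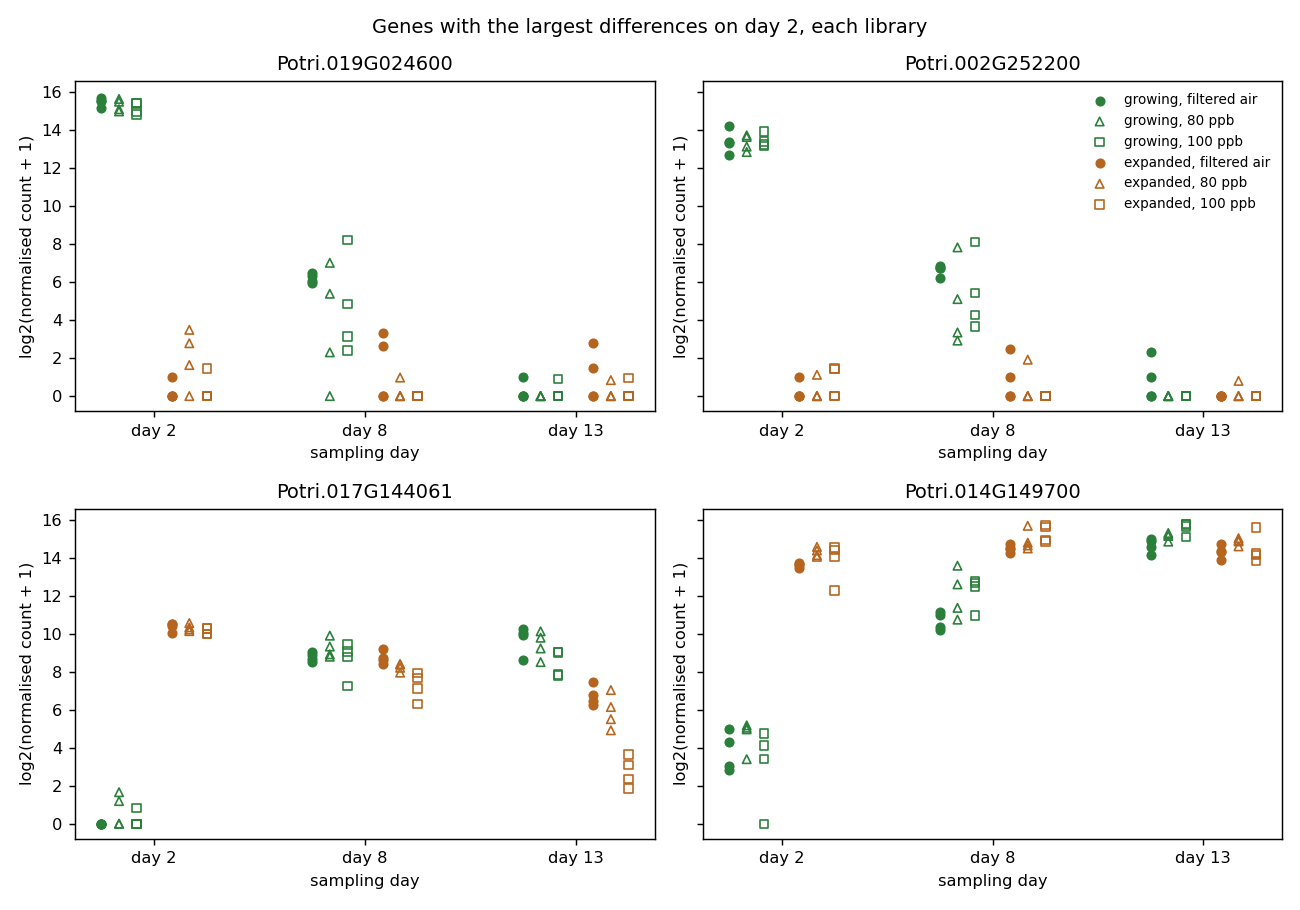
Normalised read counts (log2 of the value plus 1) in every library for the 4 genes with the largest day 2 differences, by sampling day; green marks growing and brown expanded leaves, filled circles filtered air, triangles 80 ppb and squares 100 ppb ozone. The wide gap of day 2 was present at each ozone level and had closed or turned round by day 13 in filtered air.

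Genes with no read in 1 leaf position were followed in the same way. They were picked from the day 2 controls, so their difference there is a description. Genes with no read in the 4 expanded libraries and a mean of at least 100 normalised reads in growing leaves numbered 16, with growing means of 100 to 2402 (median 417). In the other direction there were 3, with expanded means of 132, 210 and 1333, the last being Potri.017G144061. With a mean of at least 10 as the limit, the numbers were 74 without a read in expanded and 41 without a read in growing leaves. In the separate libraries of day 2 at 80 ppb, 11 of the 16 had a mean of at least 100 in growing leaves, and 10 had no read in expanded leaves. At 100 ppb these numbers were 14 and 11. The median growing mean of all tested genes was 412 at 80 ppb and 430 at 100 ppb, so reaching 100 is not particular to these genes. The share of all tested genes without a read was not counted. In filtered air on day 8 none of the 16 reached a mean of 100 in growing leaves and 5 had no read, and on day 13 none reached it and 13 had no read. The 3 genes without a read in growing leaves on day 2 all had a growing mean of at least 100 on day 13. In filtered air the median growing mean of all tested genes was 400 on day 8 and 395 on day 13.

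Growing and expanded leaves differed on day 2 in the same direction in ozone as in filtered air for most called genes. At 80 ppb 17684 genes (63.7%) were called, 9047 higher (32.6%) and 8637 lower (31.1%) in growing leaves. Of the genes higher in filtered air, 8138 were also higher at 80 ppb, which is 90.2% of the filtered air list and 89.95% of the 80 ppb list. Of the lower genes 7606 were shared, 89.9% and 88.1% of those lists. At 100 ppb 18330 genes (66%) were called, 9221 higher (33.2%) and 9109 lower (32.8%). Of these, 7444 higher genes (82.5% of the filtered air list and 80.7% of the 100 ppb list) and 6908 lower genes (81.6% and 75.8%) were shared. At 80 ppb 1 gene was called in the opposite direction. At 100 ppb 21 genes higher in filtered air were called lower, and 32 lower genes were called higher. Across the 27780 genes the log2 differences in filtered air correlated with those at 80 ppb at Pearson's r of 0.963 and with those at 100 ppb at 0.913. These are correlations across genes, which are not independent, between sets of libraries of which none is shared. In all 3 kinds of air 6987 genes were higher and 6497 lower in growing leaves, together 77.1% of the genes called in filtered air. By at least 2-fold in each, 3310 were higher and 2944 lower.

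**Figure D3:**
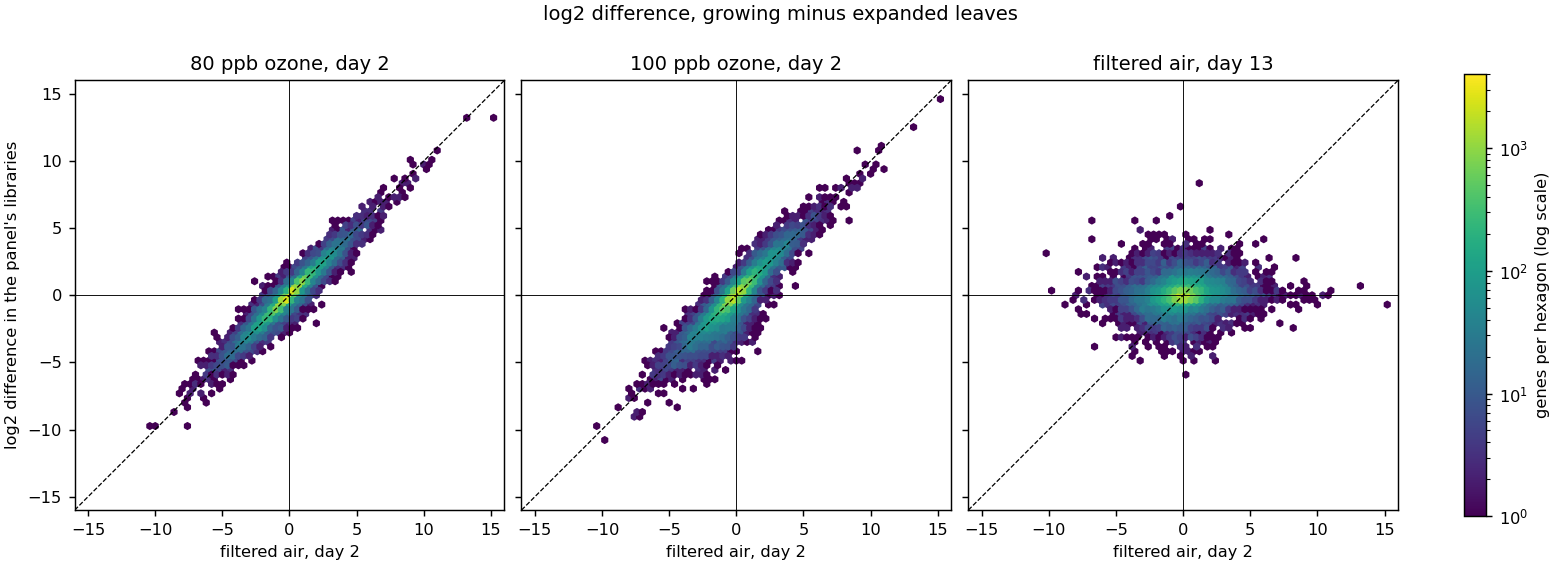
Log2 difference (growing minus expanded leaves) of each tested gene in day 2 controls on the horizontal axis, against the same difference at 80 ppb and 100 ppb ozone on day 2 and in filtered air on day 13, with the number of genes per hexagon in colour on a log scale. Genes lie along the dashed line of equal differences on day 2 (r of 0.963 and 0.913) and not on day 13 (r of 0.114).

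On day 13 the leaf positions in filtered air differed in 6938 genes (25%), 4156 higher (15%) and 2782 lower (10%) in growing leaves. The test of the change itself, day 13 minus day 2 of the leaf position difference, called 14042 genes (50.5%), 7039 with a more positive (25.3%) and 7003 with a more negative difference (25.2%) on day 13. Of the genes higher in growing leaves on day 2, 1692 were higher on day 13 as well, 18.8% of the day 2 list and 40.7% of the day 13 list. Another 582 were lower on day 13, 6.45% of the day 2 list and 20.9% of the day 13 list. Of the genes lower on day 2, 1062 were lower again (12.5% and 38.2%) and 1055 were higher on day 13 (12.5% and 25.4%). Across genes the differences of the 2 days correlated at r = 0.114. The day 13 counts depended on the scaling and on single libraries. Libraries scaled to equal totals gave 11799 genes, 2666 higher and 9133 lower, with a median of all genes at −0.26 on the log2 scale, and gave 4360 more positive and 10744 more negative changes between the days. A model of only the 8 libraries of day 13 called 1874 genes. Without expanded replicate 2 of day 13 there were 4425, and the expanded controls of day 13 had the widest spread of the 18 groups (median SD per gene 0.308, range over groups 0.148 to 0.308). The reversed calls moved as well, since the 582 genes became 289 without expanded replicate 4, 358 without expanded replicate 3 and 375 without growing replicate 3 of day 13. The genes lower on both days, 3.82% of those tested, were 1.72% without expanded replicate 2 and 2.29% without expanded replicate 4 of day 13. With equal totals, 9.17% of the tested genes were higher on day 2 and lower on day 13 (2.10% as deposited), 2.37% the reverse (3.80% as deposited) and 9.43% lower on both days, so the balance between these patterns depended on the scaling.

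Genes whose direction turned round between the days had moderate differences on each day. The 582 genes had a median log2 difference of 0.64 on day 2 and −0.47 on day 13, and 101 of them reached 2-fold on both days. The 1055 genes had medians of −1.01 and 0.91, and 347 reached 2-fold on both days. Potri.009G034500, with the largest positive change between the days after Potri.017G144061, is one of them. It had 8.28, 10.5, 6.05 and 3.18 normalised reads in growing leaves on day 2, against 531, 950, 832 and 726 in expanded leaves. On day 13 it had 1036, 1304, 1054 and 477 in growing leaves, against 2.49 to 76.1 in expanded leaves. Its groups did not overlap on either day and stood in opposite order, and the change between the days was 12.21 ± 0.80 (log2 ± SE, limma, adjusted p = 1.30e-18). The gene was chosen for this change in the same libraries, so the p-value is a description. The largest negative changes were those of Potri.019G024600 (−16.04 ± 1.17) and Potri.002G252200 (−12.33 ± 0.88), which had at most 5.82 normalised reads in any filtered air library of day 13. With so few reads on day 13, the fitted size of these 2 changes depends on the pseudocount. In edgeR's test the change of Potri.002G252200 did not pass (adjusted p = 0.99994).

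The largest differences of day 13 were in other genes. These genes were chosen in the day 13 libraries for that size, so their day 13 p-values are a description. Potri.001G401300 had 397, 312, 202 and 70.1 normalised reads in growing leaves on day 13, against 1.83, 0.832, 3.26 and 0 in expanded leaves (log2 difference 6.57 ± 0.50 SE, limma, adjusted p = 1.45e-14). On day 2 it had 237, 197, 224 and 210 in growing leaves and 256, 203, 170 and 262 in expanded leaves (−0.02 ± 0.50), and those groups overlapped. Potri.006G062100 likewise had 1129, 1222, 1464 and 70.1 in growing leaves on day 13 and 2.75, 2.49, 0 and 0 in expanded leaves. On day 2 it stood at 1447, 2204, 1577 and 1426 in growing leaves, against 949, 386, 1579 and 720 in expanded leaves (1.03 ± 0.89, adjusted p = 0.315 by limma). Growing replicate 4 of day 13 was the lowest of its group for both genes. The 2 genes lowest in growing leaves on day 13, Potri.007G111500 and Potri.011G158100, owed much of their size to expanded replicate 2 of that day, with 1648 and 1343 normalised reads against at most 104 and 70.8 in the other expanded libraries. Their log2 differences were −5.90 and −5.08 with it, and −4.31 and −3.39 without it. The growing libraries held 0 reads and 1 read of them, and neither call was made in the model of only the 8 libraries of day 13 (limma, adjusted p = 0.0585 and 0.0916).

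The genes with differences of at least 8-fold on day 2 were followed through the other groups. The day 2 controls chose them, so only values from other libraries are read as a comparison. The 827 higher genes had a median level of 233 normalised reads in growing leaves and 10.9 in expanded leaves of the day 2 controls. At 80 ppb on day 2 the medians were 190 in growing and 11.2 in expanded leaves, and at 100 ppb 268 and 12.8. Of the 827, 821 were called higher at 80 ppb, where 32.6% of all tested genes were, and 822 at 100 ppb, where 33.2% were. In filtered air the growing leaf median was 26.7 on day 8 and 7.29 on day 13, against 6.15 and 5.18 in expanded leaves. On day 13, 111 of the 827 were called higher (13.4%, against 15% of all tested genes), 25 lower (3.02%, against 10%) and 691 were not called. The set then lay near the floor, whereas all tested genes had day 13 medians of 395 in growing and 407 in expanded leaves. On day 2, genes below a mean of 10 normalised reads were called less often (33.6%), so these shares do not compare genes of like level.

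The 694 genes at least 8-fold lower ran the other way. Their median was 9.63 normalised reads in growing leaves and 185 in expanded leaves of the day 2 controls. At 80 ppb on day 2 it was 11.8 in growing and 201.4 in expanded leaves, and at 100 ppb 12.2 and 212. The test called 687 of them lower at 80 ppb, against 31.1% of all tested genes, and 690 at 100 ppb, against 32.8%. In filtered air growing leaves reached medians of 88.6 on day 8 and 211 on day 13, against 254 and 266 in expanded leaves. On day 13, 86 of the 694 were called lower (12.4%) and 90 higher (13.0%), while 518 were not called (74.6%). These shares were near those of all tested genes (10% lower, 15% higher and 75.0% not called). From day 8 to day 13 in filtered air, the growing leaf median moved by more than the expanded leaf median in both sets. This is a comparison of medians without a test. The day 2 controls chose the sets and are left out of it. The expanded leaf median of the higher set was already low, with little room to fall.

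**Figure D4:**
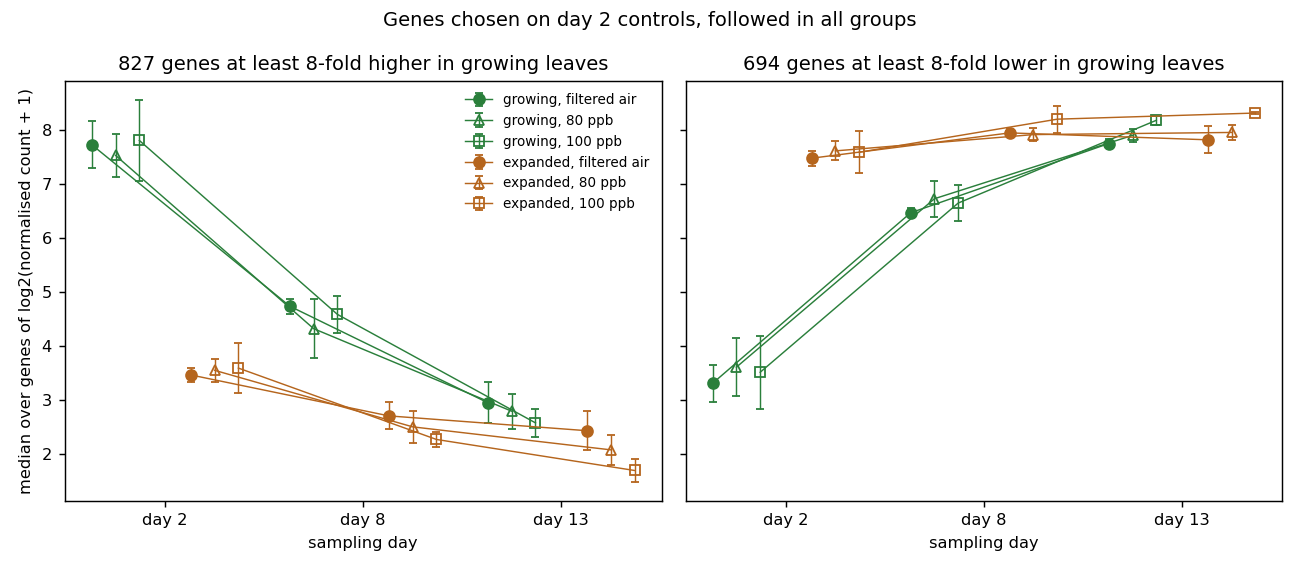
Median log2 level (log2 of the normalised read count plus 1) of the genes at least 8-fold higher (left, 827) and at least 8-fold lower (right, 694) in growing leaves of the day 2 controls, by day, leaf position and air; points are the mean of 4 library medians and bars their SD. Growing leaves (green) lay above expanded leaves (brown) on day 2 at left and below them at right, and the positions came close by day 13.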

How the data were processed

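The deposited signal per gene and library is, per the labels, a normalised count; its values were tested and in each of 72 columns 100% were whole multiples of 1 step (within 0.01 reads, largest deviation 0.000622), so whole reads were recovered. Median-of-ratios size factors recomputed from them differed from the steps by at most 2.46e-09%. TopHat2 2.12, featureCounts, Subread 1.6.1 and DESeq2 1.24.0 are named in the submitters' processing notes; roles, parameters and genome build are not given in the sources used here. No column (0) was left out.

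Genes with at least 10 in at least 4 libraries (27780) were tested with limma 3.58.1 in R 4.3.3 on log2(value + 1), with 18 group means, all 72 libraries (54 residual degrees of freedom), eBayes with a trend and Benjamini-Hochberg adjustment within each contrast, two-sided at 0.05. Fold changes are on this scale, which understates those of low genes. Count tests on the recovered reads called 17421 genes (edgeR 4.0.16, quasi-likelihood) and 17628 (DESeq2 1.42.0) in the day 2 controls. Other packages were data.table (version 1.17.8) and statmod 1.5.0. Intervals of read ratios and floors (3 reads over a group) are 95% and cover counting error only. The 95% intervals set against a 1.5-fold difference come from limma's standard errors and cover the spread between libraries.

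The genes named pass the test, reach a mean of 100 in the higher group and have groups that do not overlap. For the change between the days, a mean of 100 in any control group of day 2 or day 13 was asked instead, without the condition on overlap. With identifiers alone, the 2 with the largest log2 change in each direction per comparison are given. For the same reason planned gene lists and cell type markers were not used here. The comparison and its lists were chosen with earlier results of these data known, and the fold sets, genes without reads, shared calls, day 2 and day 13 patterns, read shares and neighbours were chosen after the values were seen. Counts were simulated for the day 2 control contrast (27696 genes, changed genes at levels of at least 20). The share of 2-fold changes found among 100 was 75% with limma, 74% with edgeR and 75% with DESeq2. Of 4-fold changes among 100 it was 97%, 96% and 97%, with 22, 6 and 20 false calls. No other gene was simulated with a difference, whereas 63% of genes were called in the data. These shares therefore do not measure recovery in the data.

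The alternatives tried were TMM, equal totals, pseudocounts of 0.25 and 8, a filter at 50 or none, the compared libraries alone, robust eBayes, a replicate block and each library left out.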

Additional observations from a re-analysis of the deposited data

Results flagged for a closer look

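In 50 groups of 4 libraries examined for a library far from the other 3, 11 had one. Chance gives about 1 in 20 for continuous values, a rate that does not apply to 8 of the 11, in which 1 library with 1 or 2 reads stood against 0 in the other 3. These were Potri.019G024600 in expanded leaves of the day 2 controls (1.02 normalised reads) and at 100 ppb (1.74), Potri.002G252200 in expanded leaves of the day 2 controls (1.02) and at 80 ppb (1.17), and Potri.014G126000 (1.37, 80 ppb) and Potri.017G144061 (0.787, 100 ppb) in growing leaves on day 2. On day 13 they were Potri.011G158100 (1.10) and Potri.019G024600 (0.976) in growing controls. Expanded replicate 2 of the day 13 controls stood far above its group in Potri.007G111500 (1648, others 6.42 to 104) and Potri.011G158100 (1343, others 2.75 to 70.8). Growing replicate 3 of the day 2 controls had 33.8 M reads, against 38.6 M to 39.0 M in the others.

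The 4 genes with the largest change from day 2 to day 13 were chosen in the same libraries, so their p-values are a description. In these genes limma called a changed leaf position difference (Benjamini-Hochberg adjusted). It became more positive by 13.37 in Potri.017G144061 (adjusted p = 7.67e-27) and 12.21 in Potri.009G034500 (1.30e-18). The change was −16.04 in Potri.019G024600 (6.79e-17) and −12.33 in Potri.002G252200 (3.50e-17). The edgeR test of the last gene gave −11.41 with an adjusted p of 0.99994. In the day 13 controls this gene held 5 reads in growing and 0 in expanded leaves, so the limma value depends on the pseudocount.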

How the results depend on the processing

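The count of genes that differed between growing and expanded day 2 controls lay between 16403 (filter at 50) and 18115 (compared libraries alone), and between 16208 and 16991 with each library left out. Equal totals gave 9802 higher and 7217 lower. Replicate numbers are unexplained in the labels, and same-numbered libraries deviated together by a correlation of only 0.00862 to 0.0505; with the replicate block the count was 17840, and on day 13 it was 7631. Day 13 gave 11799 genes with equal totals and 1874 with the compared libraries alone (4425 to 8901 with a library left out); the change between days had 28.9% more positive genes with equal totals, against 50.1%. Pseudocount 8 left 460 genes at least 8-fold higher and 368 lower. Of the genes tested, 2.10% were higher on day 2 and lower on day 13, 3.80% the reverse, 3.82% lower on both days and 6.09% higher on both days. With equal totals the first 3 shares were 9.17%, 2.37% and 9.43%, with the compared libraries alone all 4 were 0.425%, 1.76%, 0.770% and 1.89%, and with a library left out they ran from 1.04% to 3.06%, 2.84% to 4.86%, 1.72% to 5.42% and 4.24% to 7.06%. The first component held 75.0% with pseudocount 0.25, 86.2% with 8, 75.5% with no filter and 84.8% with the filter at 50. Potri.007G111500 (adjusted p = 0.0585) and Potri.011G158100 (0.0916) lost their day 13 calls with the compared libraries alone. Among the genes in the comparison for which they were chosen, no other lost a call except Potri.002G252200 in edgeR's test of the change between days, and no direction reversed; their values in other comparisons were not run under the alternatives. The cause of these shifts was not tested. The fold and day patterns were added after the data were seen. The same alternatives on gene lists were not run. Genes below 10 normalised reads limit the depth of these statements, with a median standard error of 0.63.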

Other observations

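The called genes were spread over all 19 chromosomes as the number at the start of each identifier gives them. The share higher in growing leaves on day 2 ran from 27.1% on chromosome 19 to 35.7% on chromosome 9, and the share lower from 27.7% on chromosome 15 to 33.7% on chromosome 19. Another 142 tested genes carry a T in place of the number and are outside these ranges, with 14.8% higher and 39.4% lower. Identifiers are numbered in order along a chromosome, so tested genes next to each other in this order were taken as neighbours. Untested genes between them were passed over. Of the genes at least 8-fold higher in growing leaves, 15.01% had a neighbour in the same set, against 5.80% of all tested genes with a neighbour in it. For the genes at least 8-fold lower these shares were 22.6% and 4.85%. The longest runs of such neighbours were 5 higher genes on chromosome 11 and 6 lower genes on chromosome 17. Runs of at least 3 held 28 higher and 41 lower genes. Neighbours can be copies of each other that share reads, which was not assessed, and no test was made of these shares.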
